A study of Mus musculus with 18 samples.

Results

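The 7 genes described here, *Gabra2*, *Gabra3*, *Gabra4*, *Gabra5*, *Gabrb1*, *Gabrb2* and *Gabrd*, encode subunits of the GABA-A receptor in the mouse. They were taken by symbol from the α, β and δ families of that receptor and matched by Ensembl identifier among the 38561 genes counted. All 7 were found, and all 7 passed the filter of 10 counts in at least 1 library that left 17545 genes for testing. The data are 18 RNA sequencing libraries from frontal cortex, striatum and hippocampus of adult mice on a C57 Bl6J background, with 3 libraries of each genotype in each region. Wild-type (WT) littermates carried no mutant allele by their label, and *Pcm1*-/- mice (labelled PCM1 KO) carried a gene trap in *Pcm1*, which encodes a scaffold protein of centriolar satellites. The study asked what the loss of *Pcm1* changes in the adult brain. All animals were untreated as far as the labels state. The mutant line comes from a trapped embryonic stem cell line (E14Tg2a.4) and was backcrossed to C57BL/6J, so genome segments of the donor cells can remain in these mice. The 3 regions were dissected from the same mice, and the animal numbers deposited with the libraries give 3 WT and 3 *Pcm1*-/- animals, numbered 1 to 3 within each genotype here.

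GABA-A receptors are chloride channels built from several subunits and opened by γ-aminobutyric acid (GABA), the main inhibitory transmitter of the forebrain. The α and β subunits together form the site that binds GABA. The kind of α subunit sets where a receptor sits and which drugs act on it. Receptors with α2 or α3 are found mostly at synapses, while receptors with α5, and those that pair α4 with δ, sit largely outside them and carry a lasting, tonic inhibition. In a bulk tissue library, fewer cells that express a gene and less RNA of it per cell cannot be told apart.

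In the GRCm38 assembly *Gabra2* (ENSMUSG00000000560) lies on the minus strand at chr5:70957597-71095849, *Gabra4* (ENSMUSG00000029211) on the minus strand at chr5:71569749-71658308 and *Gabrb1* (ENSMUSG00000029212) on the plus strand at chr5:71658113-72149037. *Gabra3* (ENSMUSG00000031343) lies on the minus strand at chrX:72432681-72656848 and *Gabra5* (ENSMUSG00000055078) on the minus strand at chr7:57407672-57510059. *Gabrb2* (ENSMUSG00000007653) lies on the plus strand at chr11:42419757-42629028 and *Gabrd* (ENSMUSG00000029054) on the minus strand at chr4:155384980-155398112. All counts are of reads over the exons of these genes, so isoforms were not told apart.

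The libraries held 24950537 to 33405081 counts on genes (median 27844740.5), which was 86.8% to 89.2% of all reads counted. Even the lowest library of any member, *Gabra5* in a WT striatum, held 400 counts. The targeted gene fitted its labels. *Pcm1* had 3425 to 4919 counts per WT library and 313 to 520 per *Pcm1*-/- library, and its log2 fold change was −3.46, −3.29 and −3.51 in frontal cortex, striatum and hippocampus. The regions also fitted their labels. The summed level of 10 markers of striatal projection neurons was 7186 to 9332 CPM (counts scaled to a common library size with TMM) in the striatum and 153 to 333 CPM elsewhere. The sum of 8 markers of cortical excitatory neurons was 2562 to 3121 CPM in the frontal cortex, 1470 to 2403 CPM in the hippocampus and 181 to 246 CPM in the striatum. For 9 markers of hippocampal excitatory neurons the sum was 1083 to 1331 CPM in the hippocampus and 317 to 610 CPM elsewhere. For 6 thalamic markers it was 302 to 608 CPM in the WT hippocampus, 147 to 331 CPM in the *Pcm1*-/- hippocampus and 113 to 240 CPM elsewhere. The sum of 6 markers of the choroid plexus was 5996 CPM in WT striatum replicate 3 against 30.4 to 165 CPM in the other striatal libraries, and it ranged from 221 to 6296 CPM over the hippocampal libraries. No marker of any of the 12 lists was at 0 in all libraries of a group.

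Levels of different genes were compared per length, as reads per kilobase of merged exons and scaled as CPM (RPKM). In the WT frontal cortex *Gabra3* was the most abundant of the 7 transcripts, at 61.8 ± 2.26 RPKM (SD, n = 3). *Gabrb2* followed at 36.1 ± 5.05 RPKM, *Gabra4* at 26.7 ± 2.82, *Gabrd* at 22.6 ± 2.41, *Gabra5* at 20.9 ± 3.04, *Gabra2* at 10.4 ± 4.96 and *Gabrb1* at 4.09 ± 0.681. The ranges of *Gabra4* and *Gabrd* overlapped in that order, as did those of *Gabrd* and *Gabra5* and those of *Gabra2* and *Gabrb1*.

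The WT striatum had another order. *Gabra4*, at 44.3 ± 2.38 RPKM, and *Gabrd*, at 38.4 ± 3.40 RPKM, led there with overlapping ranges, ahead of *Gabrb2* at 26.7 ± 1.18. *Gabra3* at 14.1 ± 2.26, *Gabra2* at 11.9 ± 4.94 and *Gabra5* at 5.47 ± 0.912 came next, each overlapping its neighbour, and *Gabrb1* was lowest at 3.47 ± 0.261.

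In the WT hippocampus *Gabra5* stood alone at the top, at 81.2 ± 17.2 RPKM. *Gabra4* at 27.4 ± 1.97, *Gabrb2* at 24.7 ± 3.54, *Gabra2* at 15.9 ± 9.39 and *Gabra3* at 15.3 ± 4.02 followed, each overlapping the next. *Gabrd* at 9.81 ± 1.53 and *Gabrb1* at 4.85 ± 0.371 were lowest and did not overlap. Of the summed RPKM of the 7 genes, *Gabra3* made up 34.0% ± 2.02 in the WT frontal cortex and 8.46% ± 0.878 in the WT hippocampus. *Gabra5* made up 45.2% ± 3.59 in the hippocampus and 3.79% ± 0.633 in the striatum. *Gabra4* and *Gabrd* made up 30.8% ± 1.81 and 26.6% ± 1.58 in the striatum.

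The *Pcm1*-/- libraries had the same first gene in the frontal cortex (*Gabra3*, 68.8 ± 3.12 RPKM) and in the hippocampus (*Gabra5*, 102 ± 15.96 RPKM). In the *Pcm1*-/- striatum *Gabrd* (52.7 ± 1.39 RPKM) and *Gabra4* (50.2 ± 3.43 RPKM) overlapped at the top. The order depends on the length that is used. Dividing by coding length moved 31 of the 42 places in the 6 groups, since the merged exons of *Gabrb1* (13838 bases) and *Gabra2* (7640 bases) are much longer than their coding lengths of 1422 and 1353 bases. On coding length the first gene stayed the same in 4 of the 6 groups, and it became *Gabrb2* in the *Pcm1*-/- frontal cortex and *Gabra4* in the *Pcm1*-/- striatum.

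**Figure D1:**
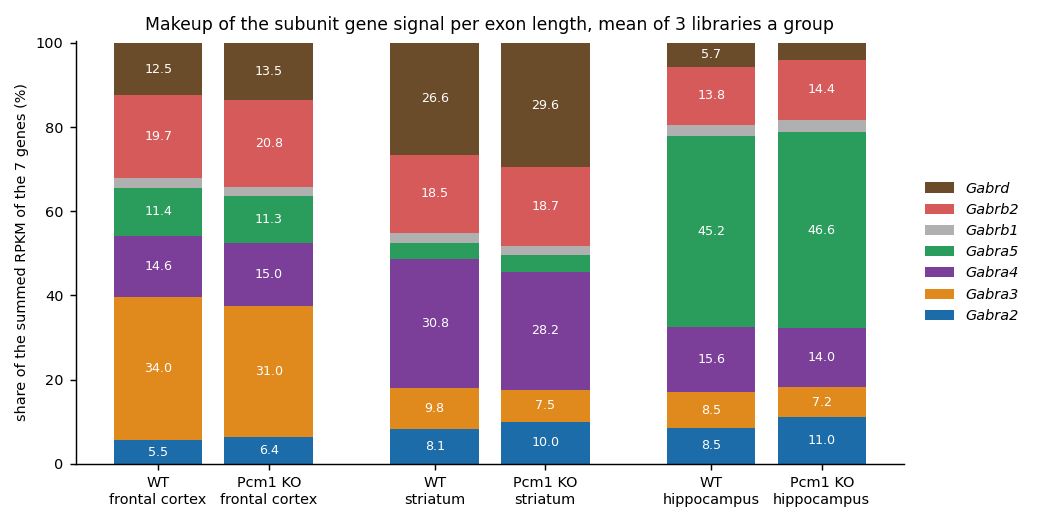
Share of each subunit gene in the summed RPKM of the 7 genes (vertical axis, %), as the mean of 3 libraries for each genotype and region (horizontal axis). *Gabra3* is the largest share in the frontal cortex, *Gabra4* and *Gabrd* are the largest in the striatum, and *Gabra5* is the largest in the hippocampus, in both genotypes.

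Differences between regions within a genotype were tested gene by gene with edgeR's quasi-likelihood test on the 9 libraries of that genotype. Members called at an adjusted p under 0.05 in WT mice numbered 5 between striatum and frontal cortex, 4 between hippocampus and frontal cortex and 4 between hippocampus and striatum. Calls were common in all genes, at 41.5%, 29.8% and 29.2% of those tested. The *Pcm1*-/- mice gave 5, 6 and 4 calls, where 54.3%, 41.5% and 45.0% of all genes were called. The library levels below are in CPM, in the order of the replicate numbers.

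*Gabra3*, the α3 subunit, was highest in the frontal cortex. The 3 WT frontal cortex libraries held 234, 243 and 251 CPM, the WT striatal libraries 46.2, 55.2 and 63.9, and the WT hippocampal libraries 48.5, 78.0 and 53.7. Every frontal library lay above all striatal and hippocampal ones. The level fell by 2.14 on the log2 scale from frontal cortex to striatum (SE 0.174, adjusted p = 6.04e-06) and by 2.02 from frontal cortex to hippocampus (SE 0.173, adjusted p = 2.18e-05). In *Pcm1*-/- mice the same differences were −2.36 (SE 0.203) and −2.11 (SE 0.201). Striatum and hippocampus overlapped in both genotypes.

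*Gabra5*, the α5 subunit, was highest in the hippocampus, the region in which it is classically described. WT hippocampal libraries held 210, 300.4 and 215 CPM. WT frontal cortex libraries held 52.2, 69.7 and 64.9 CPM and WT striatal libraries 15.0, 14.4 and 19.4. The 3 regions did not overlap, and hippocampus exceeded striatum 14.8-fold (log2 fold change 3.89, SE 0.187, adjusted p = 1.71e-07), the widest regional difference of any member. Hippocampus exceeded frontal cortex by 1.95 on the log2 scale (SE 0.171, adjusted p = 2.44e-05), and striatum lay 1.93 below frontal cortex (−1.93, SE 0.176, adjusted p = 1.28e-05). The *Pcm1*-/- libraries gave 3.89, 2.03 and −1.86 for these comparisons. The *Gabra5* locus overlaps a protein-coding gene on the opposite strand over 90368 bases in the annotation. The library kit was a stranded one but the strand setting of the counting was not stated, so reads of both genes cannot be told apart where their exons overlap.

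The sequences before the starts of *Gabra3* and *Gabra5*, the members with the widest regional differences in WT mice, are shown beside those of *Gabra2*, whose level differed most between animals, and *Gabra4*, which starts close to *Gabrb1*. Each line gives the 250 bases before a RefSeq gene start on the gene's strand (GRCm38.p6), in lower case with each CG pair in capitals.

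Gabra2, chr5:71095850-71096099, minus strand: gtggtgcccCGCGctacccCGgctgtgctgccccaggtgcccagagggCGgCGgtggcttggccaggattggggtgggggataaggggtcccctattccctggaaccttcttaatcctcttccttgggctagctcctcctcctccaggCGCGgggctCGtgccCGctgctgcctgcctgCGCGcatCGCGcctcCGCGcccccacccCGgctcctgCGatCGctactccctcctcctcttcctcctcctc
Gabra3, chrX:72656920-72657169, minus strand: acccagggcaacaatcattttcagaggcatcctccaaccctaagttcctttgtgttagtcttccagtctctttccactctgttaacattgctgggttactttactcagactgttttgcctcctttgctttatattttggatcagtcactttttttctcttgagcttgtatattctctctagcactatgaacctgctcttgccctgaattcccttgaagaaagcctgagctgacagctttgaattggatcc
Gabra4, chr5:71658309-71658558, minus strand: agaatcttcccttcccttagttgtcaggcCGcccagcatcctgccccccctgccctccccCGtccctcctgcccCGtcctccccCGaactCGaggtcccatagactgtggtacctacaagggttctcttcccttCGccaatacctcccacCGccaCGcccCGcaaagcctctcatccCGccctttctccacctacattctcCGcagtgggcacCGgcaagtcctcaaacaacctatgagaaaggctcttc
Gabra5, chr7:57510060-57510309, minus strand: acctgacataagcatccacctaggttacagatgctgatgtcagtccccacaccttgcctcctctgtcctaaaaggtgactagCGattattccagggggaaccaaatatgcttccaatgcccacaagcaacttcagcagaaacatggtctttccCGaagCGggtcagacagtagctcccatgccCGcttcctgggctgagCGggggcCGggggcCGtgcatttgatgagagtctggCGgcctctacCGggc

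The *Gabra3* window held no CG pair, which is true of 7.866% of the 32851 windows of this length in the table, and its GC content was 42.4% against a median of 52.4%. The *Gabra5* window held 9 CG pairs, *Gabra4* 12 and *Gabra2* 18, against a median of 6 over all windows and an interquartile range of 2 to 16. The windows were searched on both strands for 4 motifs. The letters TATAAA (in 12.368% of all windows) were found once in *Gabra3*, on the opposite strand, and not in the other 3 windows. The letters GGGCGG of an Sp1 site (in 32.742% of windows) were found once in *Gabra2* and at 2 places in *Gabra4*. Neither the cAMP response element TGACGTCA (1.546%) nor the EGR motifs GCGTGGGCG and GCGGGGGCG (3.059%) were found in these 4 windows. These matches describe letters only.

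*Gabra4* and *Gabrd*, which pair in receptors outside the synapse, were both highest in the striatum. *Gabra4* read 284, 269 and 255 CPM in the WT striatum, 148, 158 and 181 in the WT frontal cortex and 169, 154 and 177 in the WT hippocampus. Striatal libraries lay above all others, by 0.73 over frontal cortex (log2, SE 0.0946, adjusted p = 0.000145), and hippocampus lay 0.70 below striatum (−0.70, SE 0.0946, adjusted p = 0.000255). Frontal cortex and hippocampus overlapped (log2 fold change 0.04, adjusted p = 0.817).

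*Gabrd* separated the 3 regions completely. It read 121, 107 and 103 CPM in the WT striatum, 66.6, 70.7 and 57.2 in the WT frontal cortex and 31.0, 23.1 and 30.5 in the WT hippocampus. Striatum exceeded frontal cortex by 0.77 on the log2 scale (SE 0.122, adjusted p = 0.000576), and hippocampus was below frontal cortex (−1.20, SE 0.125, adjusted p = 7.37e-05) and below striatum (−1.97, SE 0.127, adjusted p = 1.23e-06). Between frontal cortex and hippocampus *Gabrd* fell while *Gabra4* did not pass the test. Over the 18 libraries the log2 CPM values of *Gabrd* and *Gabra4* correlated at r = 0.77 and those of *Gabrd* and *Gabra5* at −0.95. These are descriptions over libraries that share regions and animals.

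The β genes differed less between regions. *Gabrb2* was highest in the frontal cortex, with 198, 229 and 262 CPM in WT mice, against 178, 163 and 169 in WT striatum and 131, 170.4 and 169.9 in WT hippocampus. The WT frontal libraries lay above those of the other regions. The differences were −0.43 for striatum (SE 0.126, adjusted p = 0.0185) and −0.55 for hippocampus (SE 0.126, adjusted p = 0.00824) on the log2 scale. The call for striatum was lost without WT striatum replicate 2 or without WT frontal cortex replicate 3 (log2 fold changes −0.40 and −0.33, adjusted p up to 0.0649). In *Pcm1*-/- mice these differences were −0.47 and −0.57, and both were called.

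*Gabrb1*, the lowest of the 7 per kilobase of merged exons, read 49.0, 53.6 and 67.1 CPM in the WT frontal cortex, 51.9, 47.4 and 44.7 in WT striatum and 63.5, 73 and 64.8 in WT hippocampus. In WT mice only the difference between hippocampus and striatum was called (log2 fold change 0.48, SE 0.119, adjusted p = 0.0117). In *Pcm1*-/- mice *Gabrb1* was also higher in hippocampus than in frontal cortex (log2 fold change 0.45, SE 0.107, adjusted p = 0.00664). *Gabrb1* and *Gabra4* lie head to head on chromosome 5. The RefSeq start of *Gabrb1* (71657921) lies 387 bases inside *Gabra4*, which starts at 71658308 on the opposite strand. The annotated genes overlap by 196 bases, and the *Gabra4* window printed above lies within the span of *Gabrb1*. Without the strand setting of the counting, reads of both genes cannot be told apart where their exons overlap. By the mean of 3 WT libraries, *Gabra4* was highest in the striatum and *Gabrb1* in the hippocampus.

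*Gabra2* was not called between regions in WT mice, where its adjusted p was 0.431 to 0.801. Its spread between WT animals was wide, as described below. With the animal as a block, which takes out such differences because the same mice gave all 3 regions, hippocampus exceeded frontal cortex in WT mice (log2 fold change 0.54, adjusted p = 0.0219). In *Pcm1*-/- mice hippocampus exceeded frontal cortex without the block (0.77, SE 0.214, adjusted p = 0.0147), a call lost without *Pcm1*-/- frontal cortex replicate 1 (0.59, adjusted p = 0.0568). The block added calls in those mice for striatum over frontal cortex (0.34, adjusted p = 0.0103) and hippocampus over striatum (0.42, adjusted p = 0.00447).

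**Figure D2:**
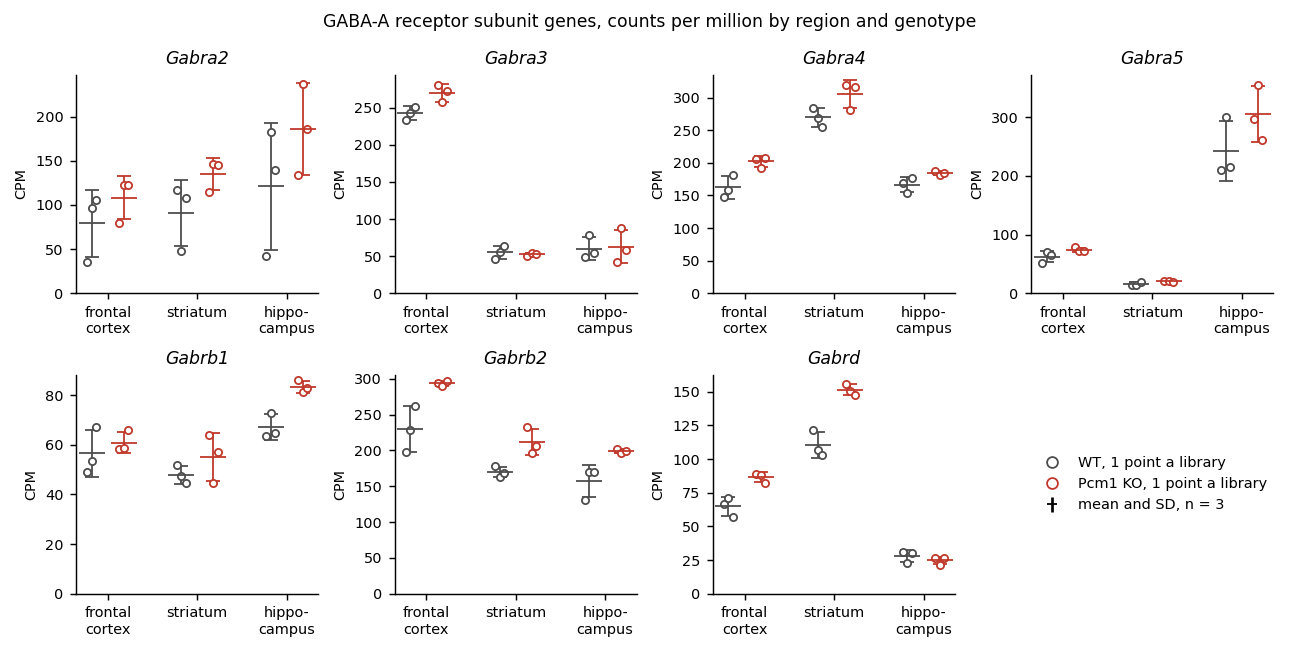
CPM (vertical axis, linear, from 0) of each subunit gene in every library, by region (horizontal axis) and genotype (WT grey, *Pcm1*-/- red, labelled Pcm1 KO). Points are libraries, and bars show the mean and SD of 3. *Gabra3* is high in the frontal cortex only, *Gabra5* is high in the hippocampus, *Gabra4* and *Gabrd* are highest in the striatum, and the 3 WT values of *Gabra2* are widely spread in every region.

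The genotypes were then compared within each region. In the frontal cortex all 7 members had a log2 fold change above 0, where 48.1% of all genes did, with a median of 0.31 against −0.01 over all genes tested. The members called at an adjusted p under 0.05 were 1 of 7, *Gabrd*, where 1.41% of all genes were called higher and 1.74% in either direction. An unadjusted p under 0.05 was reached by 5 of the 7, all higher, where 7.84% of all genes were higher at that level. In 5 of the 7 every *Pcm1*-/- library lay above every WT library, where 21.3% of all genes were separated in either direction.

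*Gabrd*, the δ subunit, read 89.1, 88.0 and 82.1 CPM in *Pcm1*-/- frontal cortex and 66.6, 70.7 and 57.2 in WT. The groups did not overlap. The difference was 1.33-fold (log2 0.41, SE 0.0791, adjusted p = 0.0442). The call was lost in 8 of 14 alternative settings, among them leaving out any library but WT frontal cortex replicate 3. The adjusted p over the settings ran from 0.000849 to 0.210, and the log2 fold change from 0.33 to 0.48. Adding the sequencing lane to the fit gave a log2 fold change of 0.46 and an adjusted p of 0.0786.

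*Gabra4* read 206, 193 and 208 CPM in *Pcm1*-/- frontal cortex against 148, 158 and 181 in WT (log2 fold change 0.31, SE 0.0779, adjusted p = 0.0981). *Gabrb2* read 294, 290.5 and 297 CPM against 198, 229 and 262 (log2 fold change 0.35, SE 0.0914, adjusted p = 0.108). Neither passed the test, although neither pair of groups overlapped. Both were called by DESeq2, at adjusted p = 0.0165 for *Gabra4* and 0.0140 for *Gabrb2*, where DESeq2 called 3.24% of all genes with an adjusted p higher and 4.88% in either direction. Both were also called by edgeR without WT frontal cortex replicate 3, at 0.00989 and 0.0102. *Gabra3* read 281, 257 and 272 CPM against 234, 243 and 251, with a log2 fold change of 0.15 and an adjusted p of 0.258. *Gabra5* read 78.3, 72.7 and 72.6 CPM against 52.2, 69.7 and 64.9, with a log2 fold change of 0.25 and an adjusted p of 0.269. *Gabrb1* overlapped between the genotypes (log2 fold change 0.10, adjusted p = 0.727), and so did *Gabra2* (0.44, adjusted p = 0.588). Without WT frontal cortex replicate 1 the log2 fold change of *Gabra5* was 0.14, and with 1 library left out that of *Gabrb1* ran from 0.0038 to 0.24. With lane in the fit the estimates for *Gabra2* and *Gabrb1* went to −0.0038 and −0.02.

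Cell type markers were read in the same libraries. In the frontal cortex the summed oligodendrocyte markers were 1903 to 2544 CPM in WT and 1712 to 1811 CPM in *Pcm1*-/- libraries, and all 6 of these markers had log2 fold changes below 0. The summed microglial markers were 386 to 505 CPM in WT and 335 to 381 CPM in *Pcm1*-/- libraries, also with all 6 below 0. The summed GABA interneuron markers were 856 to 936 CPM in WT and 1090 to 1177 CPM in *Pcm1*-/- libraries, with 6 of 8 above 0 and 1 called higher. The summed markers of cortical excitatory neurons were 2562 to 2615 CPM in WT and 2919 to 3121 CPM in *Pcm1*-/- libraries, with 6 of 8 above 0 and 1 called higher. The summed markers of striatal projection neurons were 240 to 264 CPM in WT and 300 to 333 CPM in *Pcm1*-/- frontal cortex, with 8 of 10 above 0 (median 0.27) and 2 called higher. The summed markers of oligodendrocyte precursors were 183 to 199 and 148 to 161 CPM, with all 4 below 0 and 1 called lower, and 4 of 5 endothelial markers were below 0 (median −0.33). Of the markers of hippocampal excitatory neurons, 1 of 9 was above 0 (median −0.13). Thalamic and astrocyte markers were above 0 in 3 of 6 each (medians −0.05 and −0.04). Choroid plexus markers were above 0 in 2 of 6 and ependymal markers in 3 of 5 (medians −0.22 and 0.30). No marker of these lists was called. The part of these differences in the values of the 7 genes was not tested.

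In the striatum 6 of the 7 log2 fold changes were above 0 (49.1% of all genes), and none of the 7 members was called by edgeR, where 0.0285% of all genes were called. At an unadjusted p under 0.05, 4 of the 7 were higher, where 6.54% of all genes were. DESeq2 called 2, *Gabrb2* and *Gabrd*, at adjusted p = 0.0156 and 4.71e-05, both higher, where it called 2.12% of all genes higher and 3.84% in either direction. *Gabrd* read 156, 151 and 148 CPM in *Pcm1*-/- and 121, 107 and 103 in WT striatum, without overlap (log2 fold change 0.46, SE 0.0725, adjusted p = 0.104 by edgeR). *Gabrb2* read 232, 197 and 206 CPM against 178, 163 and 169, also without overlap (log2 fold change 0.32, SE 0.0761, adjusted p = 0.177 by edgeR). These 2 members were the ones without overlap, both higher, where 9.60% of all genes were separated in that direction.

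*Gabra4* (0.18), *Gabra5* (0.33), *Gabrb1* (0.20) and *Gabra2* (0.57) had log2 fold changes above 0 in the striatum and *Gabra3* (−0.07) below 0, with adjusted p from 0.298 to 0.825. The estimate for *Gabrb1* was 0.086 without *Pcm1*-/- striatum replicate 1 and 0.33 without *Pcm1*-/- striatum replicate 2. Lane 5 held all 3 WT striatal libraries, while lanes 3 and 4 held the *Pcm1*-/- ones. Within the striatum the genotypes and the lanes cannot be told apart. In 1 fit of all 18 libraries with lane, which takes the lane terms from the other regions as well, the striatal estimates were 0.94 for *Gabra2*, 0.31 for *Gabrb1* and 0.16 for *Gabra5*. The summed oligodendrocyte markers were 9223 to 9422 CPM in WT and 5596 to 9119 CPM in *Pcm1*-/- striatum, and all 6 of these markers had log2 fold changes below 0. The summed markers of striatal projection neurons were 7186 to 8297 CPM in WT and 8626 to 9332 CPM in *Pcm1*-/- striatum, with all 10 above 0 (median 0.33). The summed thalamic markers were 127 to 240 and 113 to 121 CPM (median log2 fold change −1.18), and the summed microglial markers 498 to 712 and 452 to 518 CPM (median −0.35), with all 6 of each list below 0. All 6 choroid plexus markers were below 0 (median −3.95), where WT striatum replicate 3 stood apart as given above. The summed astrocyte markers were 1999 to 2638 and 1801 to 1933 CPM and those of oligodendrocyte precursors 250.1 to 271 and 201 to 232 CPM, and all 5 ependymal markers were above 0 (median 0.35). No marker of any list was called in the striatum. The summed GABA interneuron markers were 842 to 964 CPM in WT and 958 to 1053 CPM in *Pcm1*-/- striatum, with 4 of 8 above 0. Their part in the result was not tested.

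In the hippocampus, too, 6 of the 7 were above 0 (49.8% of all genes). None was called by edgeR or by DESeq2, where edgeR called 0.0171% and DESeq2 1.54% of all genes. An unadjusted p under 0.05 was reached by *Gabrb1* and *Gabrb2*, both higher, where 4.84% of all genes were higher. *Gabrb1* read 86.1, 81.3 and 82.9 CPM in *Pcm1*-/- and 63.5, 73 and 64.8 in WT hippocampus (log2 fold change 0.30, SE 0.0757, adjusted p = 0.391). *Gabrb2* read 202, 197 and 199.6 CPM against 131, 170.4 and 169.9 (log2 fold change 0.32, SE 0.109, adjusted p = 0.433). *Gabra4* was the third member without overlap, at 187, 181 and 184 CPM against 169, 154 and 177 (log2 fold change 0.13, adjusted p = 0.634). Without WT hippocampus replicate 1 the estimate for *Gabrb2* was 0.21, and without WT hippocampus replicate 2 that for *Gabra4* was 0.065. Separation in that direction was seen in 10.6% of all genes.

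*Gabrd* was the member below 0 in the hippocampus, at 26.2, 21.6 and 26.3 CPM against 31.0, 23.1 and 30.5 (log2 fold change −0.21, SE 0.143, adjusted p = 0.650). Its groups overlapped. *Gabra5* read 297, 355 and 261 CPM against 210, 300.4 and 215 (log2 fold change 0.32, SE 0.160, adjusted p = 0.558), also with overlap. With 1 library left out the estimate for *Gabrd* ran from −0.34 without WT hippocampus replicate 2 to −0.12 without *Pcm1*-/- hippocampus replicate 2, and that for *Gabra5* from 0.20 without *Pcm1*-/- hippocampus replicate 2 to 0.50 without WT hippocampus replicate 2. No marker of the 12 cell type lists was called between genotypes in the hippocampus. The summed GABA interneuron markers were 413 to 635 CPM in WT and 618 to 887 CPM in *Pcm1*-/- hippocampus, with 7 of 8 log2 fold changes above 0 (median 0.45). The summed markers of cortical excitatory neurons were 1470 to 1915 and 1985 to 2403 CPM, with 4 of 8 above 0. The summed thalamic markers were 302 to 608 CPM in WT and 147 to 331 CPM in *Pcm1*-/- libraries and the summed oligodendrocyte markers 4854 to 9603 and 3668 to 6002 CPM, with all 6 of each list below 0. The summed endothelial markers were 153 to 218 and 136 to 148 CPM, with all 5 below 0 (median −0.44), and those of oligodendrocyte precursors 214 to 255 and 181 to 208 CPM, with 3 of 4 below 0. All 6 microglial and all 6 choroid plexus markers were below 0 (medians −0.22 and −0.62). Their part in these values was not tested.

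When the counts of the 3 regions were summed for each animal, which uses the same libraries again, all 7 log2 fold changes were above 0, as were 48.5% of all genes. They ran from 0.13 for *Gabra3* to 0.53 for *Gabra2*, with a median of 0.29 against −0.01 over all genes. By limma on the mean log2 CPM of each animal, the estimates were 0.044 for *Gabra3* and 0.23 for *Gabrd*. Of the 7, *Gabrd* was called (log2 fold change 0.35, SE 0.0521, adjusted p = 0.0362), where 0.992% of all genes were called higher and 1.39% in either direction. *Gabrb2* was next (0.34, SE 0.0734, adjusted p = 0.0795). Leaving out any animal but WT animal 3 ended the *Gabrd* call, with adjusted p from 0.0562 to 0.211. The limma fit ended that call as well. Cell type markers were read in the same sums. Of the markers of striatal projection neurons 9 of 10 were above 0 and 1 was called higher, and of those of cortical excitatory neurons 6 of 8 and 1. All 6 oligodendrocyte markers and all 4 precursor markers were below 0, with 1 of each called lower, and all 6 thalamic markers were below 0 (median −1.13). GABA interneuron markers were above 0 in 7 of 8 (median 0.24), while all 6 microglial, all 5 endothelial and all 6 choroid plexus markers were below 0 (medians −0.28, −0.33 and −1.09), with no call in these 4 lists. Their part in the values of the 7 genes was not tested.

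An interaction term over the 18 libraries asked whether the genotype difference itself varied with region. None of the 7 was called by edgeR, where 0.0114% of all genes were. *Gabrd* had the smallest unadjusted p of the 7 (0.000947, adjusted p = 0.326) and was the sole member under 0.05, where 5.54% of all genes were. DESeq2's likelihood ratio test gave it an adjusted p of 0.0153, where that test called 0.649% of all genes. Both fits took the 18 libraries as separate samples, although the 3 regions came from the same animals. In edgeR, the fit with lane and the fit with the animal as a block each called 0 of all genes. Over these alternatives the adjusted p of *Gabrd* ran up to 0.422. The log2 fold changes of *Gabrd* are 0.41 for frontal cortex, 0.46 for striatum and −0.21 for hippocampus. *Gabrd* was lowest in the hippocampus, and its estimate there ran from −0.34 to −0.12 with 1 library left out. Marker lists that differed between genotypes in the hippocampus, the thalamic list among them, are given above. Their part in the interaction was not tested.

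**Figure D3:**
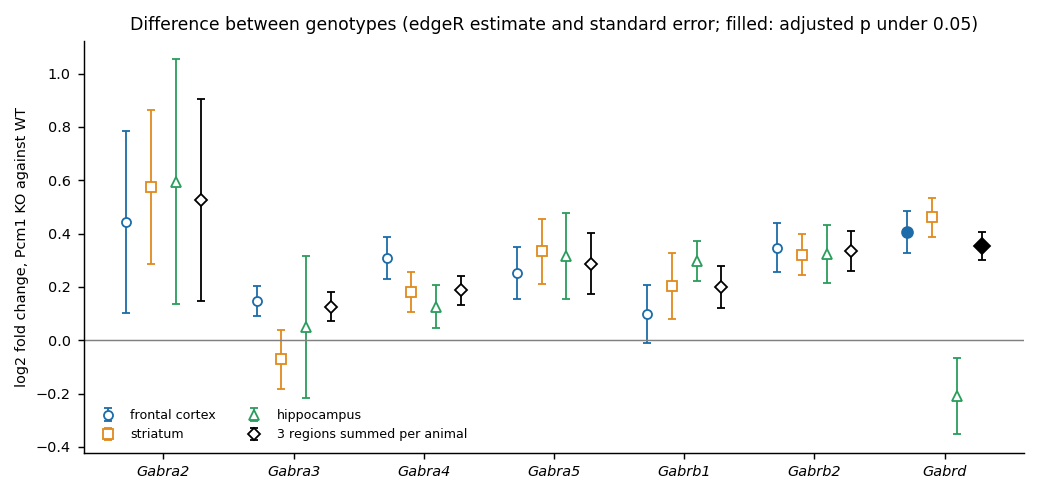
Log2 fold change of *Pcm1*-/- against WT (vertical axis; bars are the standard error of edgeR's estimate) for each subunit gene (horizontal axis) in 3 regions and in the counts summed per animal. Filled symbols, *Gabrd* in the frontal cortex and in the sums, had an adjusted p under 0.05, and *Gabrd* in the hippocampus and *Gabra3* in the striatum are the estimates below 0.

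*Gabra2*, the α2 subunit, varied widely between animals of 1 genotype. WT animal 1 held 35.9 CPM in the frontal cortex, where the other WT animals held 97.1 and 105. It held 47.6 CPM in the striatum against 108 and 117, and 42.3 CPM in the hippocampus against 182 and 139. In all 3 regions it was thus the lowest of the 6 animals, at 35.5%, 42.3% and 26.3% of the mean of the other 2 WT animals. *Pcm1*-/- animal 1 was the lowest of its genotype in all 3 regions as well. It read 79.9 CPM against 123 and 122 in the frontal cortex, 114 against 146 and 145 in its striatum and 133 against 237 and 186 in its hippocampus, or 63.0% to 78.3% of the mean of the others.

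The other members were nearer to the rest in WT animal 1, where they lay between 73.6% and 115% of the mean of the other WT animals, and *Gabra4* and *Gabrb1*, near *Gabra2* on chromosome 5, lay between 87.3% and 102% and between 81.2% and 98.1%. The 3 libraries of WT animal 1 came from lanes 3 and 5. In the striatum, where it was at 42.3%, all 3 WT libraries shared lane 5. The deposited animal numbers have a first part that all animals shared except WT animal 1 and *Pcm1*-/- animal 1. Those animals, the lowest for *Gabra2* in their genotypes, each had a different first part. What the first part stands for is not stated in the sources used here, and its part in the *Gabra2* levels was not tested.

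A test of differences between animals of the same genotype, added after the values had been seen and fitted with edgeR over all 18 libraries and 17545 genes, called 2 of the 7 members, where 5.88% of all genes were called. *Gabra2* had an adjusted p of 0.000117 and was number 48 of all genes by p. Its adjusted p stayed under 0.05 in 6 of 7 alternative settings and was 0.0611 without the frontal cortex. *Gabra5* had an adjusted p of 0.0283, with WT animal 1 at 77.5% to 83.8% and WT animal 2 at 119% to 142% of the mean of the others. It was lost in 5 of the 7 settings (adjusted p up to 0.165). The other 5 members had adjusted p from 0.102 to 0.857.

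The genotype estimate for *Gabra2* rests on WT animal 1. Without its library the log2 fold change went from 0.44 to 0.09 (frontal cortex), from 0.57 to 0.27 (striatum) and from 0.59 to 0.19 (hippocampus). In the sums it went from 0.53 to 0.17. With another library left out, the estimate rose to as much as 0.70 (frontal cortex), 0.80 (striatum) and 0.999 (hippocampus). In the sums it rose to as much as 0.78 with another animal left out. Over all settings the hippocampal estimate reached 1.33. None of these was called, with or without WT animal 1.

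**Figure D4:**
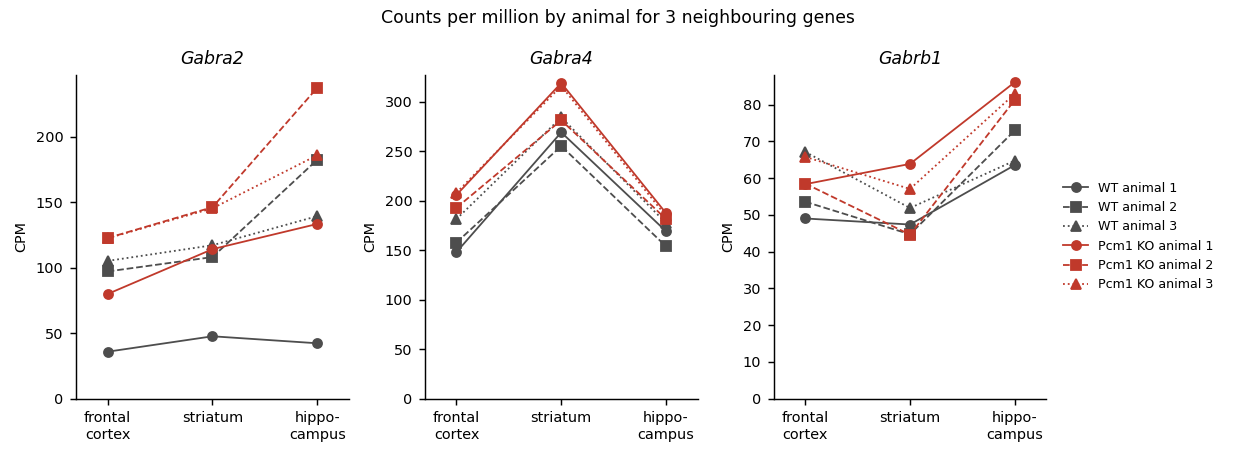
CPM (vertical axes, linear, from 0) of *Gabra2*, *Gabra4* and *Gabrb1* in the 3 regions (horizontal axes), with a line for each of 6 animals (WT grey, *Pcm1*-/- red, labelled Pcm1 KO). WT animal 1 lies at 35.9 to 47.6 CPM for *Gabra2*, below every other animal in each region, and is not set apart in this way for *Gabra4* or *Gabrb1*.

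For each member, the 3 genes most like it were those with the highest Pearson r of log2 CPM over the 18 libraries, among 12870 genes. The libraries share 3 regions and 6 animals, so these values are descriptions. *Gabra3* was closest to *Fgf12*, *Tubb5* and *Prr16* (r = 0.99, 0.99 and 0.99), and *Gabra5* to *Cpne6*, *Cdh24* and *Cblb* (0.99, 0.99 and 0.99). *Gabrd* had *Pmepa1* and *Arhgef15* among its 3 (0.99 and 0.98), and *Gabra4* was closest to *Erlin1*, *Kcna5* and *Zbtb10* (0.97, 0.96 and 0.96). *Gabrb2* had *Hs2st1* and *Emc4* among its 3 (0.97 and 0.95), and *Gabrb1* was closest to *B4galt6*, *Kpna4* and *Ppp6c* (0.94, 0.94 and 0.93). *Gabra2* had *Tmem267*, *Pxylp1* and *Anapc4* (0.94, 0.90 and 0.86). Among the members themselves the closest pairs were *Gabra5* with *Gabrb1* (0.82), *Gabra4* with *Gabrd* (0.77) and *Gabra3* with *Gabrb2* (0.75).

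Other genes of GABA signalling were read from lists. Of 12 other GABA-A subunit genes, 8 were tested. In the frontal cortex 2 of these 8 were called higher in *Pcm1*-/- mice (1.41% of all genes) and 6 had log2 fold changes above 0 (median 0.25). With 1 frontal cortex library left out, 1 to 4 of them were called. In the striatum none was called, 3 were higher at an unadjusted p under 0.05 (6.54% of all genes) and 7 were above 0 (median 0.24). In the hippocampus none was called, 4 were higher at that level (4.84% of all genes) and 4 were above 0 (median 0.14). In the sums 4 of 8 were called higher (0.992% of all genes). DESeq2 called 3 (frontal cortex), 3 (striatum) and 1 (hippocampus) of them higher, of 6 with an adjusted p, where it called 3.24%, 2.12% and 0.747% of all genes higher. In the sums it called 4 of 7 higher, where 4.59% of all genes were.

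Among 49 further genes tested, for GABA synthesis and uptake, receptor anchoring, receptor trafficking, chloride transport and GABA-B receptors, 1 was called between genotypes in the frontal cortex, where 1.74% of all genes were. It was *Clptm1*, which holds GABA-A receptors back on their way to the surface (259 ± 3.44 CPM in *Pcm1*-/- and 207 ± 1.22 in WT, log2 fold change 0.32, adjusted p = 0.0184). Leaving out any library but WT frontal cortex replicate 3 ended this call (adjusted p from 0.0529 to 0.122). None of the 49 was called in the striatum or the hippocampus, with 10 and 8 higher (6.54% and 4.84% of all genes) and 5 and 3 lower (6.98% and 5.06%) at an unadjusted p under 0.05. DESeq2 called 4 higher and 0 lower in the frontal cortex, 6 higher and 2 lower in the striatum and 0 higher and 2 lower in the hippocampus, of 48 with an adjusted p, where 4.88%, 3.84% and 1.54% of all genes were called. In the sums *Clptm1* (0.25, adjusted p = 0.0427), *Lhfpl4* (0.26, adjusted p = 0.0427), which links the receptor to inhibitory synapses, and *Slitrk3* (0.27, adjusted p = 0.0476), an adhesion protein of inhibitory synapses, were called higher (0.992% of all genes) and none was called lower. Leaving out any animal but WT animal 3 ended all 3 calls, with adjusted p from 0.0756 to 0.255, and *Slitrk3* was also lost without WT animal 3 (adjusted p = 0.0619). The 4 other GABA-A subunit genes called in the sums became 2 without WT animal 3 and 0 without any of the other animals. At an unadjusted p under 0.05, 10 of the 49 were higher in the sums (8.76% of all genes) and 8 lower (8.49%). DESeq2 called 6 of 48 higher and 6 lower in the sums, where it called 8.12% of all genes. The 9 genes of GABA synthesis, release and uptake had median log2 fold changes of −0.08, 0.01 and −0.17 in the 3 regions, with no call by edgeR.

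Between regions in WT mice, 30 of these 49 genes were called between striatum and frontal cortex, 23 between hippocampus and frontal cortex and 26 between hippocampus and striatum, where 41.5%, 29.8% and 29.2% of all genes were. Of the 9 genes of GABA synthesis, release and uptake, 5 were called higher and 3 lower in the striatum than in the frontal cortex. Log2 fold changes were 1.81 for *Slc32a1*, the vesicular GABA transporter, 1.74 for *Gad2*, which makes GABA, 1.09 for *Abat*, which breaks it down, and −1.47 for *Slc6a13*, a GABA transporter. Hippocampus was lower than striatum for *Slc32a1* (−2.25), *Gad2* (−1.66) and *Gad1*, which also makes GABA (−1.34), and 5 of 9 were called lower and 3 higher.

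Among the 13 anchoring genes tested, *Mdga1*, which binds neuroligin 2, was higher in the hippocampus than in the frontal cortex (3.09) and the striatum (2.04). *Iqsec3*, a partner of gephyrin, was lower in the striatum than in the frontal cortex (−1.33), and *Igsf9b*, an adhesion protein of inhibitory synapses, was lower in the hippocampus than in the frontal cortex (−1.72). Called genes of this list numbered 6 higher and 3 lower in striatum against frontal cortex, 4 higher and 3 lower in hippocampus against frontal cortex and 4 higher and 5 lower in hippocampus against striatum, where 41.5%, 29.8% and 29.2% of all genes were called in either direction. Of 16 trafficking genes, *Akap5*, an anchor of kinases at the synapse, was higher in the striatum than in the frontal cortex (1.50) and lower in the hippocampus than in the striatum (−2.19).

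For chloride transport, the importer *Slc12a2* was higher in striatum (1.37) and hippocampus (1.14) than in frontal cortex, and the exporter *Slc12a5*, which keeps neuronal chloride low, was lower in both (−0.32 and −0.75). Cell type markers also differed between these regions. All 6 oligodendrocyte and all 6 choroid plexus markers were called higher in both regions than in frontal cortex. Of the markers of cortical excitatory neurons, 6 of 8 were called lower in both. Their part in these values was not tested. *Gabbr2*, a subunit of the GABA-B receptor, was lower in the striatum than in the frontal cortex (−2.39) and higher in the hippocampus than in the striatum (2.12). Its partner protein *Kctd8* moved the other way (1.64 and −1.88).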

How the data were processed

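RNA from each library was prepared with a stranded mRNA kit and sequenced on an Illumina HiSeq. Per the labels, the authors trimmed reads with Trim Galore and cutadapt, aligned them with STAR to GRCm38 and counted reads per gene with HTSeq. The paper names the release of that reference. Versions of these tools and the strand setting are not given in the sources used here. The deposited values are raw counts per gene, one file a library. Rows that name no gene (no feature or ambiguous) were left out, and the other 86.8% to 89.2% of reads were on genes.

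Genes with at least 10 counts in 1 or more libraries were kept (17545). Genotypes were compared within each region, and regions within each genotype, with edgeR 4.0.16 (quasi-likelihood test, TMM scaling, Benjamini-Hochberg over all genes tested, threshold 0.05), in R 4.3.3. DESeq2 1.42.0 and limma 3.58.1 were alternatives. CPM used TMM scaling over the 18 libraries, log2 CPM a prior count of 2, and RPKM the merged exon length of GENCODE vM21. Lanes and animals came from the labels and file names. The labels' replicate numbers do not mark 1 animal across regions in WT mice, and same-animal libraries correlated at 0.152 to 0.289 after group means were removed. All members are named. Pathway genes called between genotypes are named, except for the other GABA-A subunit genes, which are given by counts, and between WT regions up to 4 a list, those called with the largest absolute log2 fold changes and a mean log2 CPM of 1 or more. The members and lists were chosen with earlier results of these data known. Some genes are not reported here. Promoter windows are from RefSeq on GRCm38.p6, which held windows for 6 of the 7 members.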

Additional observations from a re-analysis of the deposited data

How the results depend on the processing

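The number of the 7 members called between genotypes in the frontal cortex (1) became 3 with DESeq2, 3 with no filter on low counts, 0 in 1 fit of all 18 libraries, 0 in that fit with lane and 0 with lane within the region, and ranged from 0 to 3 with 1 library left out. With the replicate number as a block it was 3 (*Gabra4*, *Gabrb2* and *Gabrd*). The labels do not say that a number marks a shared litter, batch or day, and not every same-numbered pair correlated at over 0.1, so the numbers were not taken to pair the samples. Deviations of same-numbered WT and *Pcm1*-/- libraries correlated at 0.043, 0.260 and 0.197 (frontal cortex), 0.178, −0.156 and −0.269 (striatum) and 0.096, 0.507 and 0.194 (hippocampus), and 6, 1 and 2 of 6 libraries correlated best with their own number. That all 6 did so in the frontal cortex is a hint of pairing from the data, not from the design. In the striatum the count (0) became 2 with DESeq2 and 1 with no filter. In the sums (1) it was 2 with DESeq2, 0 with limma on mean log2 CPM and 0 to 2 with 1 animal left out. The interaction (0) gave 1 by DESeq2's likelihood ratio test, 0 with lane and 0 with the animal as a block. Between animals of a genotype (2) it was 0 without the frontal cortex, 1 without the striatum, 1 without the hippocampus and 1 to 3 with 1 of the 3 libraries of WT animal 1 left out, the only ones left out in that test. The cause of these shifts was not tested.

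Over all genes, calls in the frontal cortex (306) were 687 with DESeq2, 544 with no filter, 176 in 1 fit of all libraries, 95 in that fit with lane, 665 with the replicate block, 29 with lane within the region and 11 to 825 with 1 library left out. In the sums, calls over all genes (243) were 4 to 398 with 1 animal left out, at most 16 of them unless that was WT animal 3. DESeq2 called 488 genes in the striatum (edgeR 5), 212 in the hippocampus (3), 1203 in the sums (243) and 94 for the interaction (2). Signs turned for *Gabra2* (−0.0038) and *Gabrb1* (−0.021) with lane within the region, frontal cortex. With 1 library left out, signs turned for the following differences. Between genotypes *Gabra3* ranged from −0.18 to 0.047 in the striatum and from −0.25 to 0.27 in the hippocampus. Between WT regions *Gabra2* ranged from −0.15 to 0.51 (striatum against frontal cortex) and from −0.0032 to 0.82 (hippocampus against striatum), *Gabra4* from −0.024 to 0.13 (hippocampus against frontal cortex), and, for hippocampus against striatum, *Gabra3* from −0.12 to 0.26 and *Gabrb2* from −0.19 to 0.0029. In *Pcm1*-/- mice *Gabra3* ranged from −0.060 to 0.47 for hippocampus against striatum. With the animal as a block, calls between regions changed for *Gabra2* alone among the members, as given above. Counts of members called between regions stayed within 1.5 times in all alternatives.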
